A study of Mus musculus with 19 samples.

Results

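Expression was compared between 3 pelvic and 3 adrenal neuroblastomas that had arisen in the same 3 mice, mouse 23, mouse 36 and mouse 84, which are 6 of the 11 FGFR1-N546K;MYCN tumors and 6 of the 19 tumors of the series. They were the tumors whose titles name an animal and either the pelvis or the kidney. The study's sample sheet lists the latter as adrenal gland, so these are called adrenal tumors here. All 3 animals were heterozygous for an FGFR1-N546K transgene in the ROSA26 locus, for Th-IRES-Cre and for Th-MYCN, and both tumors of an animal therefore shared genotype and age. Cre was driven by the tyrosine hydroxylase promoter, the recombined FGFR1-N546K transgene by the CAG promoter and MYCN by a tyrosine hydroxylase promoter, so the model depends on cells that express Th. Mouse 23 (male) was 21 days old, mouse 36 (male) was 20 days old and mouse 84 (female) was 19 days old at sampling, and no treatment was named. The 5 remaining FGFR1-N546K;MYCN tumors carry no single site in their titles and enter only as a background level.

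Sympathetic neuroblasts and chromaffin cells derive from the neural crest and make catecholamines in consecutive steps, from tyrosine through dopamine and noradrenaline to adrenaline, the last step being characteristic of the adrenal medulla. The adrenal medulla lies inside a steroid-producing cortex, whereas pelvic sympathetic tissue lies beside the bladder, the genital tract and the rectum. HOX genes encode transcription factors that are arranged in 4 clusters and are expressed in a nested order along the body axis, with the higher-numbered paralog groups used in posterior tissue.

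The libraries held 43084354 to 75882643 estimated counts per tumor, and 17901 genes had at least 10 counts in at least 3 of the 6 tumors. Hand2, a marker of sympathetic neuroblasts, was at 227 to 295 counts-per-million units (CPM) in the adrenal tumors and at 260 to 366 CPM in the pelvic tumors, and Mycn was at 84.6 to 130 CPM and 89.2 to 118 CPM. Y-linked transcripts were high in both tumors of mice 23 and 36 and low in both tumors of mouse 84, which matched the stated sexes. The human transgenes were not analysed here, and endogenous Fgfr1 was at 88.6 to 164 CPM in the adrenal and 88.4 to 103 CPM in the pelvic tumors (edgeR quasi-likelihood test, Benjamini-Hochberg adjusted p = 0.652). The pelvic tumor of mouse 23 stood apart from the other 5: its scaling factor was 0.771 against 1.01 to 1.08, and its 50 most abundant genes took 18.5% of the counts, against 14.7 to 17.9%. The site difference of mouse 23 had an SD of 1.13 log2 units over all genes, against 0.88 in mouse 36 and 0.63 in mouse 84, so results are given with and without this animal where it decides them.

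Between sites, 15 genes passed the test, 13 of them higher and 2 lower in the pelvic tumors. The genes that rose included the epithelial markers Krt8, Krt5, Epcam and Upk3a and the posterior HOX genes Hoxc9 and Hoxa13. Of the 13 genes that rose, 7 (Krt5, Sprr2a3, Gsdmc2, Sprr2a2, Serpinb5, Hoxa13 and Upk3a) reached the count minimum in the pelvic tumors alone. The genes that fell were Slc6a2, the noradrenaline transporter, and Cyp11b2, the aldosterone synthase of the adrenal cortex. In these bulk samples, fewer cells of a type and less RNA per cell cannot be told apart. The test was edgeR's quasi-likelihood test with mouse as a block, Benjamini-Hochberg adjusted over all 17901 genes at 0.05. The background share of genes past it was 0.0838% in all, 0.0726% higher and 0.0112% lower. At an unadjusted p under 0.05 the shares were 2.62% higher (469 genes) and 4.18% lower (748 genes), and without the mouse block no gene passed the adjusted threshold, with 948 genes at an unadjusted p under 0.05. The number past the threshold was 340 without mouse 23, 170 without mouse 36 and 90 without mouse 84. Fits of 2 mice thus gave more genes past the threshold whichever animal was left out. A smaller adjusted p in such a fit, as given for single genes below, is therefore not by itself a clearer difference.

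**Figure D1:**
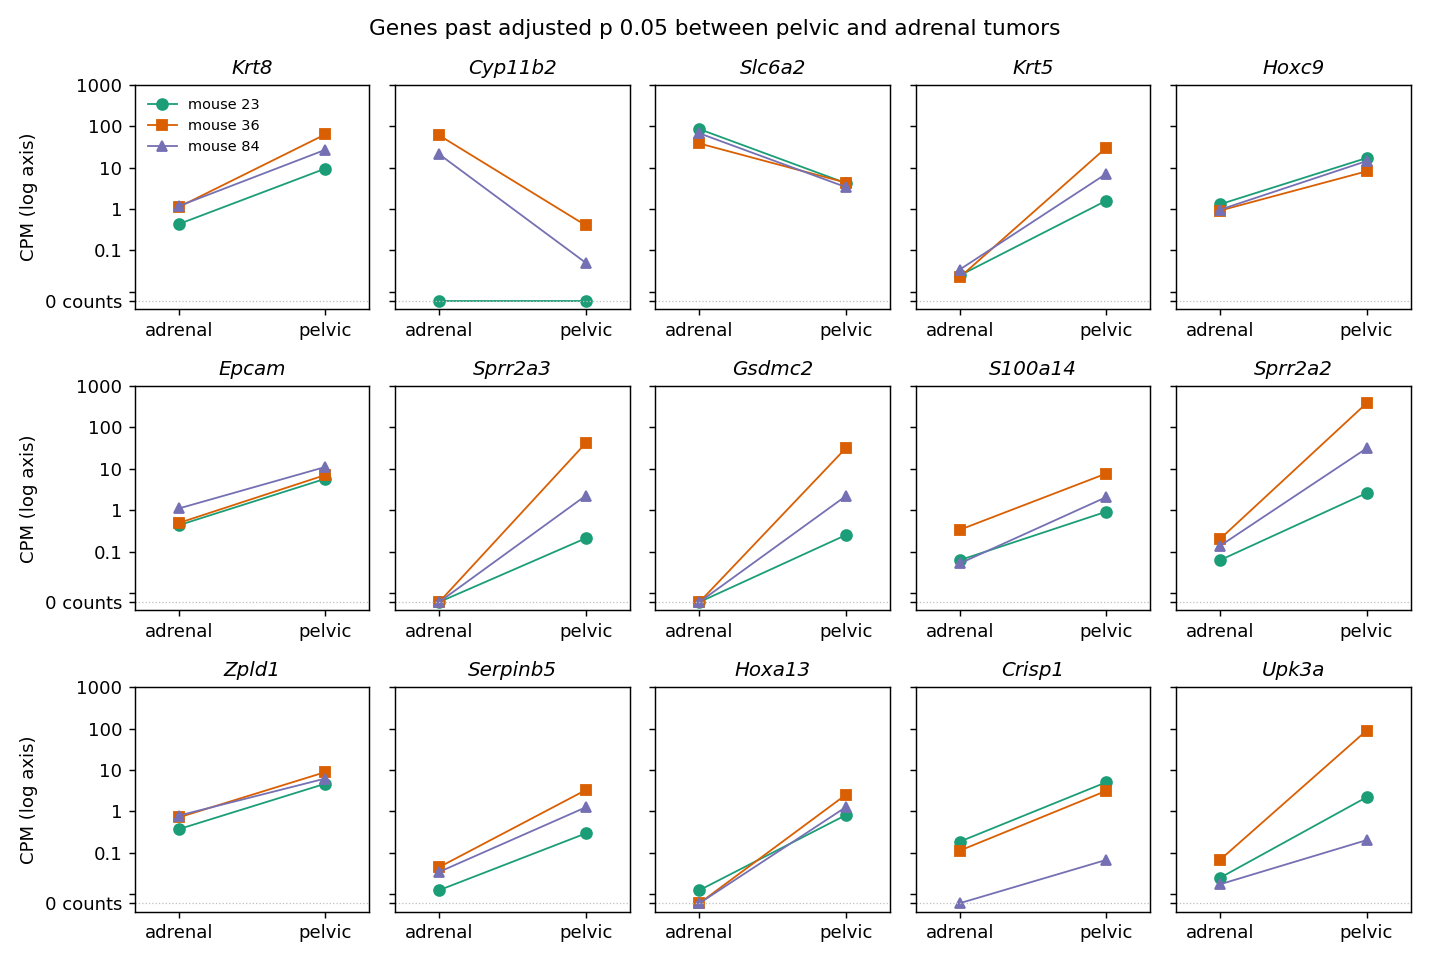
Level of each of the 15 genes past adjusted p 0.05 in the adrenal and pelvic tumor of each mouse, in counts-per-million units (CPM) on a log axis, with tumors at 0 counts drawn on the dotted line; lines join the tumors of a mouse. Krt8 lay between 0.433 and 1.18 CPM in the adrenal and between 9.5 and 64 CPM in the pelvic tumors, whereas Slc6a2 lay between 38.4 and 85.3 CPM in the adrenal and between 3.38 and 4.34 CPM in the pelvic tumors.

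The noradrenaline transporter gave the difference that held across most analyses. Slc6a2 (GRCm38 chromosome 8, 92960079 to 93001667, plus strand) was at 85.3, 38.4 and 67.6 CPM in the adrenal tumors of mice 23, 36 and 84 and at 4.22, 4.34 and 3.38 CPM in their pelvic tumors. The sites did not overlap, and the 3 pelvic values lay close together. The log2 fold change was -3.94 ± 0.34 (SE of the model fit, n = 3 mice, edgeR adjusted p = 0.0373), and the adrenal mean was 63.7 ± 23.7 CPM against a pelvic mean of 3.98 ± 0.52 CPM (SD, n = 3). Slc6a2 passed in 13 of 15 alternative analyses, more than any other of the 15 genes.

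The steps of catecholamine synthesis differed in size. Of 14 genes for synthesis and transport, all tested, 1 passed the adjusted test (Slc6a2), 6 were lower at an unadjusted p under 0.05 and none was higher, 8 were lower in all 3 mice and 2 were higher in all 3. Over all genes, 17.6% were lower and 14.9% were higher in all 3 mice. The median log2 fold change of the list was -0.34, against -0.00053 for all genes tested. Th, which encodes the first enzyme and whose promoter drives Cre and MYCN in this model, was at 923, 586 and 627 CPM in the adrenal and 512, 526 and 544 CPM in the pelvic tumors (log2 fold change -0.40 ± 0.31, adjusted p = 0.647). Ddc, the decarboxylase that forms dopamine, was at 85.4 to 159 CPM against 52.6 to 81.6 CPM, a log2 fold change of -0.85 (adjusted p = 0.61).

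The last 2 enzymes had larger fold changes than Th, without passing the adjusted threshold. Dbh, which converts dopamine to noradrenaline, was at 391, 333 and 536 CPM in the adrenal tumors of mice 23, 36 and 84 and at 116, 187 and 216 CPM in the pelvic tumors (log2 fold change -1.30 ± 0.29, adjusted p = 0.346). Its adjusted p was 0.0241 without mouse 23, 0.497 without mouse 36 and 0.343 without mouse 84. Pnmt, which converts noradrenaline to adrenaline, was at 5.38, 2.81 and 2.51 CPM against 0.835, 0.269 and 0.217 CPM. The sites did not overlap for either gene. For Pnmt the log2 fold change was -3.17 ± 0.42 (adjusted p = 0.0926), and the adjusted p was 0.0017 without mouse 23, 0.00184 without mouse 36 and 0.0583 without mouse 84. The vesicular monoamine transporters were closer between sites, Slc18a1 with a log2 fold change of -0.60 and Slc18a2 with -0.68 (adjusted p = 0.646 for both). Genes for cofactor supply and breakdown differed in direction among mice. Gch1, which starts the synthesis of the cofactor of Th, differed by 0.90, 0.11 and -0.46 log2 units in mice 23, 36 and 84, and Maoa, a monoamine oxidase, by 0.69, -0.93 and -0.40.

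**Figure D2:**
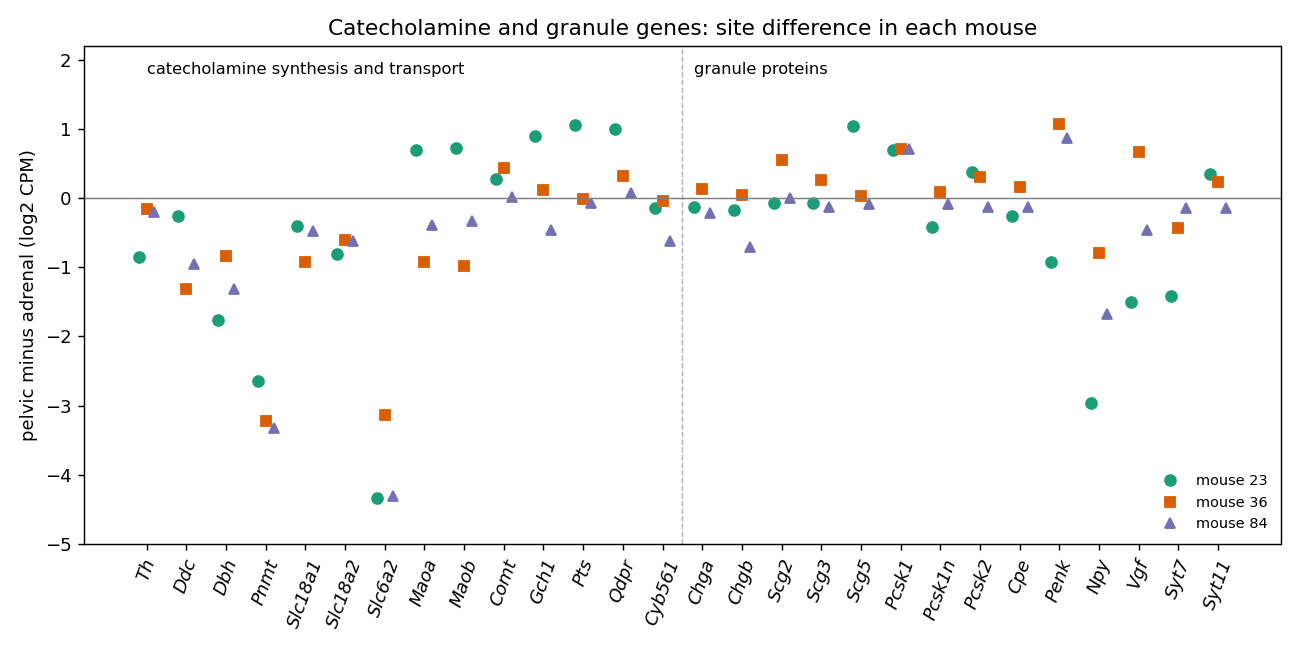
Pelvic minus adrenal difference in log2 CPM of each mouse for the 14 genes of catecholamine synthesis and transport, left of the dashed line, and the 14 granule protein genes, right of it. Slc6a2 lies between -3.14 and -4.33 and Pnmt between -2.64 and -3.33, whereas most granule genes lie near 0.

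The genes for proteins of the secretory granule had small or mixed differences. Of 14 granule genes, none passed the adjusted test and 1 was higher and 1 lower at an unadjusted p under 0.05. Among these 14, 11 differed in direction among mice, as did 12077 of all 17901 genes tested. Chga, the chromogranin used as a neuroendocrine marker, was at 164 to 296 CPM in the adrenal and 179 to 271 CPM in the pelvic tumors, with a log2 fold change of -0.07 (adjusted p = 0.908). The largest difference of the list was in Npy, a peptide released together with noradrenaline, at 224, 131 and 98.9 CPM in the adrenal and 28.7, 75.8 and 30.9 CPM in the pelvic tumors. The sites did not overlap, and the log2 fold change was -1.81 ± 0.42 (adjusted p = 0.362).

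The transcription factors of the adrenergic core circuit centered on a difference near 0. None of the 17 tested factors passed the adjusted test, 2 were higher in all 3 mice and none was lower in all 3, and their median log2 fold change was 0.034. Hand2, Gata3, Isl1, Insm1 and Eya1 had log2 fold changes between 0.022 and 0.14. Hand1 was at 47.9, 31.6 and 58.4 CPM against 11.7, 34.6 and 28.8 CPM, so it was lower in the pelvic tumors of mice 23 and 84 and not in that of mouse 36. Neuronal genes were likewise mixed: 3 of 24 were higher and 4 lower in all 3 mice, with a median of 0.031. The shares over all genes were 14.9% higher and 17.6% lower in all 3 mice. Gfra1, a co-receptor for glial cell line-derived neurotrophic factor, was at 23.3 to 38.1 CPM in the adrenal and 55.2 to 75 CPM in the pelvic tumors (adjusted p = 0.375).

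Peptide transmitters differed one by one. Of 17 tested neuropeptide genes, 5 were higher and 5 lower in all 3 mice, and none passed the adjusted test. Sst, which encodes somatostatin, was at 4.18, 0.29 and 0.721 CPM in the adrenal tumors of mice 23, 36 and 84 and at 15.6, 17.2 and 11.8 CPM in the pelvic tumors. The pelvic values lay close together, whereas the adrenal tumor of mouse 23 was the highest of its site. The log2 fold change was 3.82 ± 0.75 (adjusted p = 0.247), and the adjusted p was 1.71e-05 without mouse 23, 0.000164 without mouse 36 and 0.0995 without mouse 84. Pdyn, the dynorphin precursor, was at 2.18 to 3.81 CPM in the adrenal and 8.65 to 10.5 CPM in the pelvic tumors (log2 fold change 1.73 ± 0.30, adjusted p = 0.191). Tac1, the substance P precursor, was at 66.3, 26.8 and 13.6 CPM against 84, 150 and 58.5 CPM (adjusted p = 0.467). Vip and Chat, markers of cholinergic sympathetic neurons, did not separate by site, Vip at 485 to 897 CPM in the adrenal and 515 to 1450 CPM in the pelvic tumors and Chat at 10.6 to 16.1 CPM and 6.68 to 16.4 CPM.

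The posterior HOX genes separated the sites in a block of neighboring genes. Of 16 genes of paralog groups 9 to 13, 12 were tested, 3 of them (Hoxa11, Hoxa13 and Hoxc11) only because the pelvic tumors reached the count minimum. Of the 12 tested, 2 passed the adjusted test as higher (Hoxc9 and Hoxa13), 11 were higher at an unadjusted p under 0.05, and the same 11 were at least 2-fold higher in the pelvic tumor of each mouse. The background for a difference of at least 2-fold in each mouse was 0.743% higher (133 genes) and 0.559% lower (100 genes). The median log2 fold change of the 12 genes was 4.96. The 12th gene, Hoxb9, lay in the other direction. Leaving out mouse 23 brought 11 of the 12 past the adjusted threshold as higher and Hoxb9 as lower (adjusted p = 0.0381). Without mouse 36 and without mouse 84, 10 and 5 genes passed as higher, and Hoxb9 had adjusted p values of 0.997 and 0.455.

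Hoxc9 (GRCm38 chromosome 15, 102976439 to 102985099, plus strand) was at 1.3, 0.916 and 0.962 CPM in the adrenal tumors of mice 23, 36 and 84 and at 17.1, 8.15 and 14.4 CPM in their pelvic tumors. The adrenal values were close together and the sites did not overlap, with a log2 fold change of 3.60 ± 0.33 (edgeR adjusted p = 0.039). Hoxa13 (chromosome 6, 52257694 to 52260880, minus strand), a gene of the hindgut and urogenital region, had 1, 0 and 0 counts in the adrenal tumors and 39, 132 and 76 counts in the pelvic tumors (adjusted p = 0.0492). Hoxc10 was at 0.729, 0 and 0.0515 CPM against 13.3, 14 and 25.7 CPM (log2 fold change 6.76 ± 1.10, adjusted p = 0.145). Here the adrenal tumor of mouse 23 stood above the other 2 adrenal tumors. The same tumor was higher still in the HoxA genes next to each other: Hoxa9 was at 10.3 CPM there and at 0.0447 and 0.67 CPM in the adrenal tumors of mice 36 and 84, against 49.2, 28.1 and 45.4 CPM in the pelvic tumors. Hoxa10 was at 4.94, 0 and 0.0172 CPM against 44.7, 17.3 and 25.8 CPM. Thus the site difference of Hoxa9 was 2.25 log2 units in mouse 23, 8.46 in mouse 36 and 6.01 in mouse 84, and the smaller difference of mouse 23 lay in its adrenal tumor, since its pelvic level was the highest of the 3.

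The differences varied among clusters and along them. In the HoxA cluster, all 4 tested genes of groups 9 to 13 were higher in every mouse. In HoxC, 3 of 3 were higher, in HoxD, 4 of 4, and in HoxB, the 1 tested gene was lower. Of these, Hoxa11, Hoxa13 and Hoxc11 were tested only through the pelvic tumors, so the filter itself favored their direction. In HoxD the difference was 1.15, 1.55 and 2.31 log2 units for Hoxd9 in mice 23, 36 and 84 and 2.64, 5.13 and 5.35 for Hoxd13 at the posterior end. Hoxb9 was at 2.48, 15.9 and 5.27 CPM in the adrenal and 2.44, 2.88 and 2.94 CPM in the pelvic tumors, and its difference was near 0 in mouse 23. Hoxb13, the other posterior gene of that cluster, was not tested and had 0 counts in all 3 adrenal tumors and 0, 15 and 143 counts in the pelvic tumors of mice 23, 36 and 84. Several of these genes share exons with a neighbor in GENCODE vM21 (Hoxc10 with Hoxc5, Hoxd10 and Hoxd11 with the processed transcript Gm28309), so estimated counts could be divided between them. The summed level of the 12 genes was 8.52 to 23.3 CPM in the adrenal and 87.4 to 139 CPM in the pelvic tumors.

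The anterior genes of the same clusters did not share this pattern. Of 23 genes of groups 1 to 8, 22 were tested, none passed the adjusted test, 2 were higher and 9 lower in all 3 mice, and the median log2 fold change was -0.45. Their summed level was 75.6 to 103 CPM in the adrenal and 64.6 to 90.5 CPM in the pelvic tumors. The 2 genes higher in every mouse, Hoxc6 and Hoxc8, lie on the anterior side of Hoxc9. Hoxc8 was at 1.3, 1.99 and 1.46 CPM against 3.93, 4.26 and 5.64 CPM, with no overlap and a log2 fold change of 1.55 ± 0.36 (adjusted p = 0.366). Hoxd8 was at 17.2 to 18.7 CPM and 17.1 to 21.2 CPM, a log2 fold change of 0.046 ± 0.23, beside a Hoxd9 difference of 1.68. Of the partner families of HOX proteins, Meis1 was at 71.5 to 80.5 CPM and 72.3 to 89.5 CPM.

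**Figure D3:**
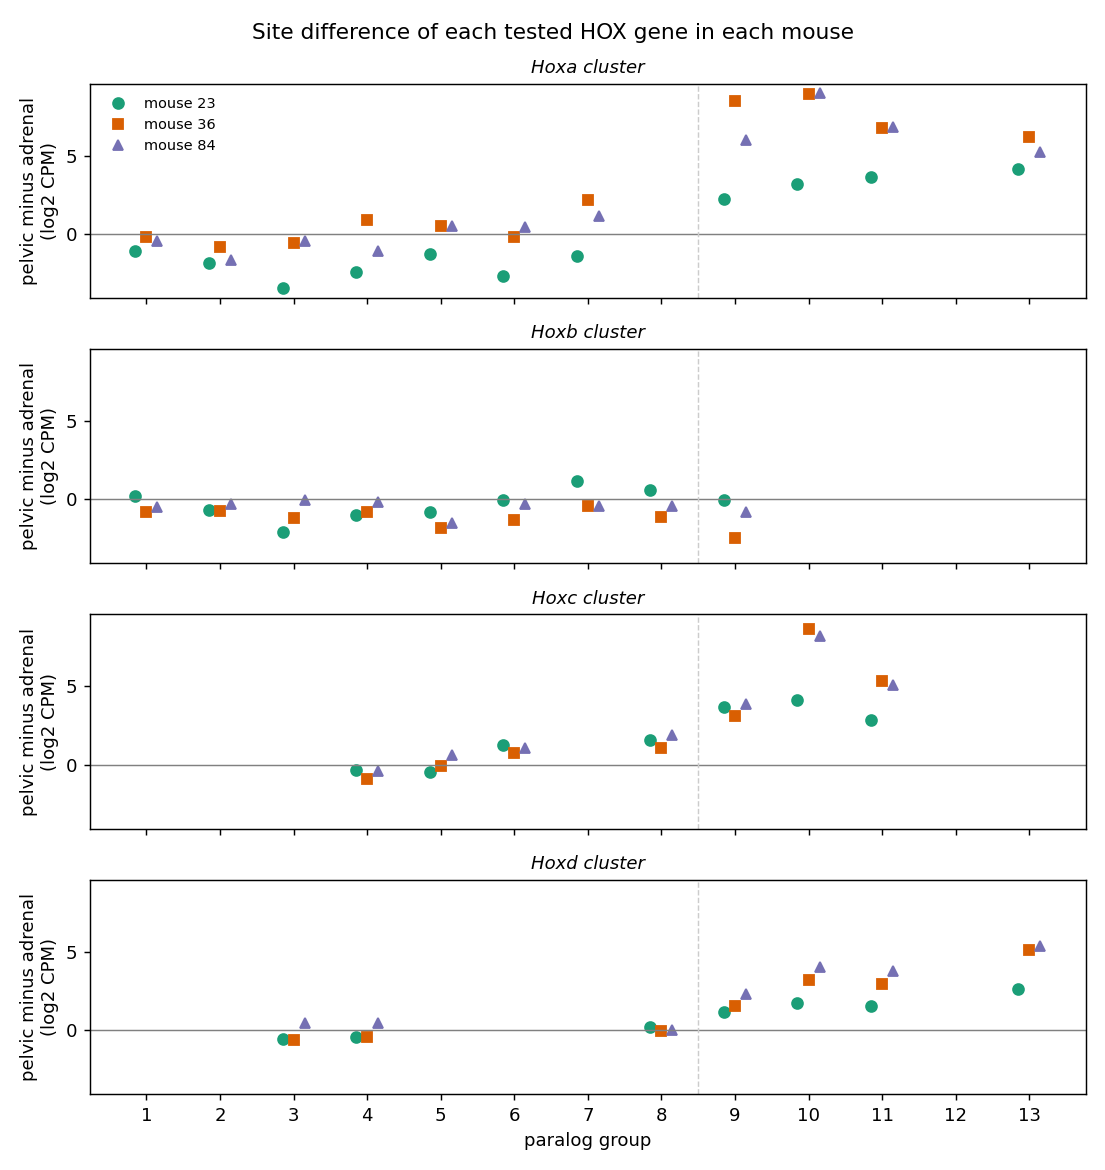
Pelvic minus adrenal difference in log2 CPM of each tested HOX gene in each mouse, by paralog group and cluster, with the dashed line between groups 8 and 9. From group 9 on, every tested gene of HoxA, HoxC and HoxD lies above 0 in all 3 mice, from 1.15 to 8.96, and Hoxb9 lies between -2.45 and -0.024. Among them, Hoxa11, Hoxa13 and Hoxc11 were tested only through the pelvic tumors.

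Among the other patterning factors, 15 of 26 were tested, 4 were higher and 3 lower in all 3 mice and none passed the adjusted test. Emx2, a homeobox gene of the urogenital ridge and the forebrain, was at 0.0618, 0.067 and 0.189 CPM in the adrenal and 1.27, 1.19 and 1.96 CPM in the pelvic tumors, with no overlap (log2 fold change 3.88 ± 0.50, adjusted p = 0.0877). Its exons overlap those of the antisense gene Emx2os. With no strand option among the stated counting settings, reads from the overlap could be divided between the pair. Tbx20 was at 109, 122 and 100 CPM in the adrenal and 37.6, 38.4 and 46.2 CPM in the pelvic tumors, close together within each site, with a log2 fold change of -1.44 ± 0.23 (adjusted p = 0.145). Its adjusted p was 0.00118 without mouse 23, 0.351 without mouse 36 and 0.107 without mouse 84.

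Epithelial genes were higher in every pelvic tumor. Of 20 general epithelial markers, 19 were tested, 3 of them only through the pelvic tumors, all 19 were higher in all 3 mice, 18 were higher at an unadjusted p under 0.05 and 2 passed the adjusted test. The summed level of the 19 was 28.8 to 39.3 CPM in the adrenal and 128 to 435 CPM in the pelvic tumors. Krt8, a keratin of simple epithelia, was at 0.433, 1.12 and 1.18 CPM in the adrenal tumors of mice 23, 36 and 84 and at 9.5, 64 and 27.1 CPM in the pelvic tumors (log2 fold change 4.93 ± 0.39, edgeR adjusted p = 0.0373). Epcam, an epithelial adhesion molecule, was at 0.433, 0.491 and 1.1 CPM against 5.76, 7.1 and 11.1 CPM (3.63 ± 0.36, adjusted p = 0.0443). The sites did not overlap for either gene. The tight junction gene Cldn4, the epithelial splicing factor Esrp1 and Cdh1, which encodes E-cadherin, had log2 fold changes of 6.52, 5.23 and 3.33 (adjusted p = 0.129, 0.238 and 0.646). The median difference of the list was 5.77 log2 units in mouse 36 and less than 3 in mice 23 and 84.

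Urothelial genes varied widely among the 3 pelvic tumors. Upk3a, a uroplakin of the bladder lining, was at 2.19, 89.8 and 0.201 CPM in the pelvic tumors of mice 23, 36 and 84 and at 0.0172 to 0.067 CPM in the adrenal tumors (adjusted p = 0.0492). Upk1b, another uroplakin, was at 3.09, 126 and 0.368 CPM in the pelvic and 0.0742 to 0.67 CPM in the adrenal tumors, so the pelvic tumor of mouse 84 lay within the adrenal range. Urothelial genes were thus highest in mouse 36. The summed level of the 9 tested urothelial and bladder markers was 97.7 to 132 CPM in the adrenal and 134 to 550 CPM in the pelvic tumors, but most of it outside the pelvic tumor of mouse 36 was Gata3, which is also an adrenergic core factor. Without Gata3, an alternative chosen after the values were seen, the sums were 3.97, 4.27 and 3.74 CPM in the adrenal and 16.5, 467 and 15.3 CPM in the pelvic tumors of mice 23, 36 and 84. Of the 9 markers, 6 were higher in all 3 mice, and 2 were tested only through the pelvic tumors.

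Of 12 squamous markers, 9 were tested, 3 of them only through the pelvic tumors, 1 passed the adjusted test (Krt5), and 6 were higher and 1 lower in all 3 mice. Krt5, a keratin of basal cells in stratified epithelia, was at 0.0247, 0.0223 and 0.0343 CPM in the adrenal and at 1.59, 30.5 and 7.12 CPM in the pelvic tumors (log2 fold change 8.10 ± 0.73, edgeR adjusted p = 0.039), with the highest level again in mouse 36. Sprr2a3, a proline-rich protein of the epithelial cell envelope, had 0 counts in every adrenal tumor and was at 0.209, 41.7 and 2.24 CPM in the pelvic tumors. Against a floor of 3 counts per library it was at least 283-fold higher (adjusted p = 0.0443), a bound set by mouse 36 that was 27.7-fold without this animal and 5.63-fold in mouse 23 alone. Gsdmc2, a gasdermin, was also at 0 counts in every adrenal tumor and at 0.251, 31.9 and 2.21 CPM in the pelvic tumors, at least 221-fold higher (adjusted p = 0.0492), and at least 27.7-fold without mouse 36 and 6.76-fold in mouse 23 alone. Sprr2a2 was at 0.0618 to 0.201 CPM in the adrenal and 2.59, 385 and 31.2 CPM in the pelvic tumors, and it shares exons with Sprr2a1 and near-identical sequence with Sprr2a3, so its counts are uncertain. Serpinb5, an epithelial serpin, was at 0.292 to 3.26 CPM and S100a14, a calcium-binding protein of epithelia, at 0.919 to 7.69 CPM in the pelvic tumors, against at most 0.0447 and 0.335 CPM in the adrenal tumors (adjusted p = 0.0492 for both). Zpld1, which encodes a zona pellucida-like domain protein, was at 0.371 to 0.79 CPM in the adrenal and 4.66 to 8.9 CPM in the pelvic tumors (adjusted p = 0.0492). Not every squamous marker followed: Dsg3, a desmoglein, was lower in all 3 pelvic tumors, at 2.84 to 4.87 CPM against 5.52 to 10.6 CPM (adjusted p = 0.556).

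A pair of genes known from the male tract were high in the pelvic tumors of the 2 male mice. Crisp1, a secreted protein of the epididymis, was at 5.05 and 3.13 CPM in the pelvic tumors of mice 23 and 36 and at 0.0669 CPM in that of mouse 84, against 0.185, 0.112 and 0 CPM in the adrenal tumors of mice 23, 36 and 84 (adjusted p = 0.0492). The levels of the sites overlapped. Akr1b7, an aldose reductase of the vas deferens and of the adrenal cortex, was at 554 and 899 CPM in the pelvic tumors of mice 23 and 36 and at 0.184 CPM in that of mouse 84, whereas the adrenal tumors were at 0.618, 582 and 48.4 CPM. It gave a log2 fold change of 0.65 ± 3.23. Only 2 of 12 male accessory gland markers reached the count minimum in enough tumors. Of those that did not, Pate4 had 419, 20 and 1 counts in the pelvic tumors of mice 23, 36 and 84. The seminal vesicle genes Svs4, with 78, 21 and 0 counts, and Svs2, with 41, 6 and 0, and Svs5, with 14, 2 and 0, had the same order, against 0 to 4 counts for all 4 genes in the adrenal tumors, whereas Svs6 had 0 counts in all 6 tumors. Spink1, a secreted trypsin inhibitor on the same list, had 240 counts in the pelvic tumor of mouse 84 and 0 to 3 in the other 5. The part of these tissues in the results was not tested.

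Smooth muscle genes were also higher in the pelvic tumors. Of 10 genes, all tested, 6 were higher in all 3 mice and at an unadjusted p under 0.05, none was lower in all 3 and none passed the adjusted test, whereas 8 passed as higher without mouse 23, 2 without mouse 36 and none without mouse 84. The summed level was 81.3 to 138 CPM in the adrenal and 212 to 1050 CPM in the pelvic tumors. Tagln, an actin-binding protein of smooth muscle, was at 31.3, 14.9 and 16.8 CPM against 74, 246 and 60.7 CPM (log2 fold change 2.34 ± 0.54, adjusted p = 0.362). Cnn1, a calponin, was at 2.92, 0.134 and 0.704 CPM against 8.31, 93.4 and 11.6 CPM, again highest in the pelvic tumor of mouse 36. Myh11, the smooth muscle myosin heavy chain, differed by 0.16, 6.18 and 3.31 log2 units in mice 23, 36 and 84. The part of epithelium or muscle in the differences of other genes was not tested. The epithelial and muscle sums were highest in the pelvic tumor of mouse 36, and the summed posterior HOX level was lowest of the pelvic tumors there, at 87.4 CPM. Single posterior HOX genes differed in this order. Hoxa9, Hoxa10, Hoxc9 and Hoxd9 were lowest in that tumor. Hoxa13 was highest there, at 0.815, 2.53 and 1.27 CPM in the pelvic tumors of mice 23, 36 and 84, as was Hoxc11, at 0.397, 1.4 and 1.15 CPM. The other tested ones lay between.

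Steroid synthesis genes of the adrenal cortex were far lower in the pelvic tumors of mice 36 and 84, whereas in mouse 23 they were low at both sites. Cyp11b2 was at 60.4 and 21.1 CPM in the adrenal tumors of mice 36 and 84 and at 0.403 and 0.0502 CPM in their pelvic tumors, and had 0 counts in both tumors of mouse 23. The log2 fold change of -7.69 ± 0.54 (adjusted p = 0.0373) therefore rests on 2 animals. Cyp11b1, a close paralog that makes corticosterone, was at 0.0618, 324 and 61.5 CPM in the adrenal and 0.0418, 1.98 and 0.0167 CPM in the pelvic tumors (adjusted p = 0.105), and reads could be divided between the pair. Hsd3b1, a steroid dehydrogenase, was at 0.0247, 556 and 88.1 CPM against 0.0418, 3.61 and 0.0334 CPM (adjusted p = 0.123). Star and Cyp11a1, which act at the start of steroid synthesis, also lay 2.40 or more log2 units lower in mice 36 and 84 and differed by 0.085 and -0.46 in mouse 23. Of 12 cortex markers, 10 were tested, 1 passed the adjusted test, 7 were lower at an unadjusted p under 0.05 and 4 were lower in all 3 mice. Mrap, an accessory protein of the corticotropin receptor, was the one that was clearly lower in the pelvic tumor of mouse 23 too. It was at 0.952, 14.1 and 2.06 CPM against 0.209, 0.403 and 0.268 CPM, with no overlap (adjusted p = 0.239). The summed level of the 10 was 69, 2560 and 457 CPM in the adrenal and 647, 976 and 64.5 CPM in the pelvic tumors of mice 23, 36 and 84. Without Akr1b7, an alternative chosen after the values were seen, the sums were 68.3, 1980 and 409 CPM against 93.3, 77.6 and 64.3 CPM.

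In mouse 23, where most cortex genes were near the pelvic level, Slc6a2, Pnmt and Dbh were higher in the adrenal tumor by 4.33, 2.64 and 1.76 log2 units. In mouse 36 these differences were 3.14, 3.23 and 0.83 and in mouse 84 they were 4.31, 3.33 and 1.31, so that of Pnmt was smallest in mouse 23. The part of cortex content in the catecholamine differences was not tested. Because the titles name the kidney, kidney markers were examined too. Umod, the defining gene of the thick ascending limb, had 0 counts in all 6 tumors, and Kap and Slc22a6 had 0 counts in the 3 adrenal tumors. The 5 tested kidney tubule genes summed to 52.4 to 109 CPM in the adrenal and 59.9 to 61.7 CPM in the pelvic tumors, mostly from Aqp1, a water channel that red cells and vessels also have, at 41.5 to 99.4 CPM and 45.5 to 58.2 CPM. A pair of untested members were higher in the pelvic tumors of mice 23 and 36. Aqp2, a water channel of the collecting duct and the vas deferens, had 7, 1 and 0 counts in the adrenal and 760, 1467 and 3 counts in the pelvic tumors, and Cdh16, a cadherin of kidney epithelium, had 6, 5 and 8 against 96, 37 and 8.

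**Figure D4:**
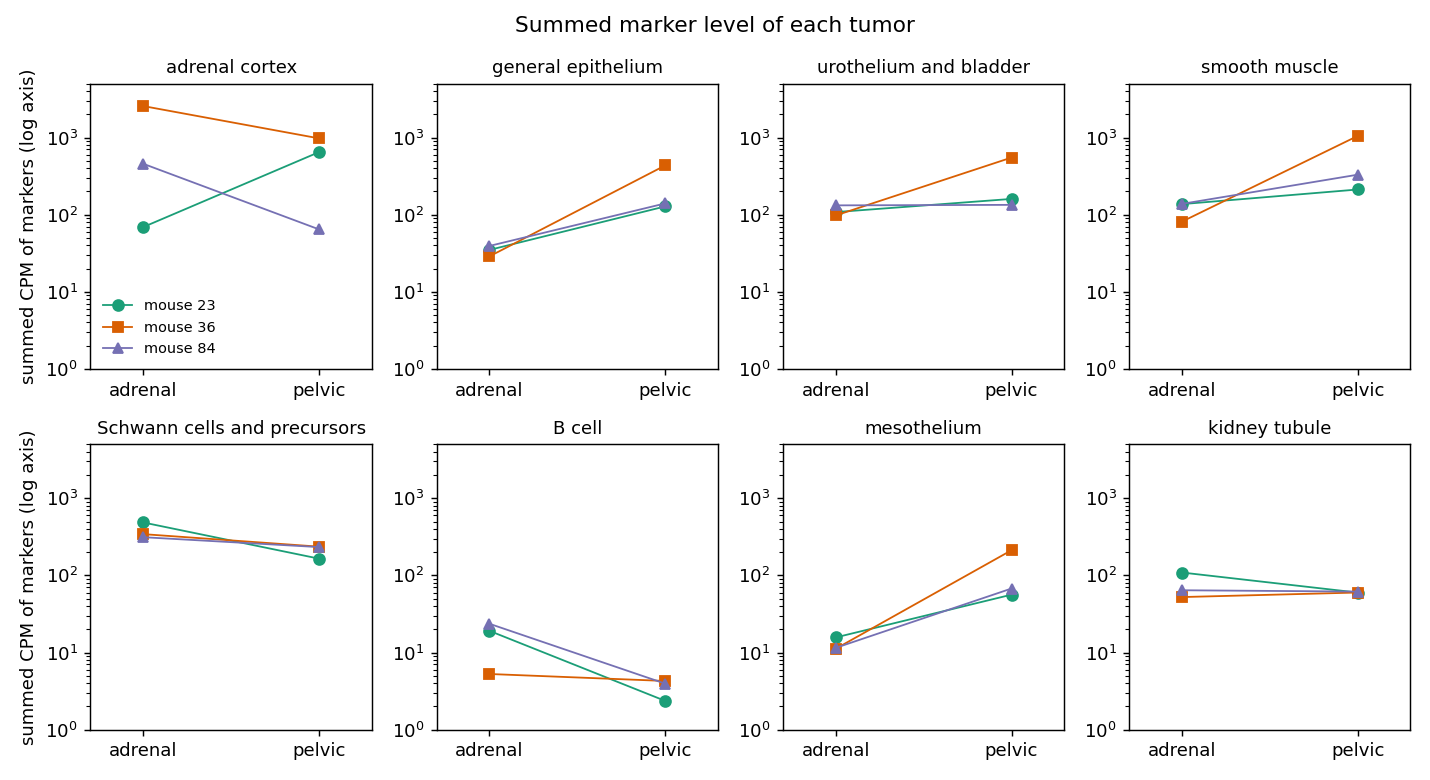
Summed counts-per-million units (CPM) of the tested markers of 8 tissues in the adrenal and pelvic tumor of each mouse, on a log axis; lines join the tumors of a mouse. General epithelium and smooth muscle are higher in all 3 pelvic tumors, and Schwann and B cell sums are lower in all 3. Adrenal cortex is lower in the pelvic tumors of mice 36 and 84 and higher in that of mouse 23, there mostly through Akr1b7. Without this gene the sums of mouse 23 were 68.3 CPM in the adrenal and 93.3 CPM in the pelvic tumor.

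Glial and lymphoid genes lay on the adrenal side. Of 12 Schwann cell and precursor genes, 9 were lower and 1 higher in all 3 mice and 6 were lower at an unadjusted p under 0.05, with none past the adjusted threshold. Their summed level was 313 to 486 CPM in the adrenal and 165 to 236 CPM in the pelvic tumors. S100b, a glial calcium-binding protein, was at 9.55, 7.5 and 4.7 CPM against 4.26, 2.86 and 2.07 CPM and did not overlap (log2 fold change -1.25 ± 0.30, adjusted p = 0.4). The median difference was -2.50 log2 units in mouse 23, -0.69 in mouse 36 and -0.48 in mouse 84, and Sox10, the master regulator of glia, differed by -3.93, -0.66 and -0.50. Of 8 tested B cell genes, 6 were lower in all 3 mice. Cd79b, a subunit of the B cell receptor, was at 1.95, 0.201 and 1.55 CPM in the adrenal and 0.104, 0.0959 and 0.167 CPM in the pelvic tumors (adjusted p = 0.357), and the difference was smallest in mouse 36. Macrophage genes did not share this side, with 5 of 12 higher and 2 lower in all 3 mice. Lyz2, a lysozyme, was at 67.3 to 81.1 CPM in the adrenal and 96.7 to 222 CPM in the pelvic tumors (adjusted p = 0.646).

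The remaining tissue lists varied with the animal. Of 5 tested intestinal markers, 2 were higher in all 3 mice, and 1 of these 2 (Krt20) was tested only through the pelvic tumors. The sum was 68.3 CPM in the pelvic tumor of mouse 84 against 5.22 to 17.1 CPM in the other 5 tumors. Lgals4, a galectin of the gut, was at 38.3 CPM in that tumor and at 2.11 to 7.28 CPM in the others. Of 8 mesothelial markers, 3 were higher in all 3 mice, and the sum was 11.2 to 15.7 CPM in the adrenal and 56.3 to 212 CPM in the pelvic tumors, although 2 of the 3 genes, Upk3b and Krt19, are shared with other epithelial lists. Of 8 tested T and NK cell genes, 5 were lower in all 3 mice. Of 9 tested spinal cord and brain genes, 5 were lower in all 3 mice, and 1 of the 9 was tested only through the adrenal tumors. Olig2, a factor of oligodendrocytes, had 0 counts in all 6 tumors. The part of these tissues in the differences of other genes was not tested.

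Among genes at higher levels, with a mean log2 CPM above 3, 9 were at least 2-fold higher and 19 at least 2-fold lower in the pelvic tumor of each mouse. The 9 higher genes were Tagln, C1qtnf7, Gpm6a, Pgm5, Mylk, Pip5k1b, Pde1a, Tmie and Lurap1l, and none passed the adjusted test. Pgm5, a phosphoglucomutase-like protein of adherens junctions in muscle, had the smallest p of them, at 5.78, 7.17 and 6.56 CPM in the adrenal and 23.1, 46.5 and 21.8 CPM in the pelvic tumors (log2 fold change 2.14 ± 0.29, adjusted p = 0.094). C1qtnf7, a secreted relative of complement C1q, was at 12.9, 7.03 and 5.31 CPM against 55.7, 23 and 49 CPM (adjusted p = 0.123).

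The 10 largest differences in the other direction included Slc6a2 and genes with other roles. Lin28b, an RNA-binding protein that blocks let-7 maturation, was at 44.3, 43.8 and 46.4 CPM in the adrenal and 11.1, 14.5 and 16.1 CPM in the pelvic tumors (log2 fold change -1.71 ± 0.24, adjusted p = 0.105). Avil, an actin-regulating protein of the peripheral nervous system, was at 52.6, 42.1 and 92.2 CPM against 6.5, 12 and 9.78 CPM (-2.69 ± 0.34, adjusted p = 0.0836), and its exons overlap those of Tsfm on the other strand. Dgkk, an X-linked diacylglycerol kinase, was at 70.7, 61.5 and 90.8 CPM against 2.3, 12.6 and 17.7 CPM (-3.12 ± 0.56, adjusted p = 0.203). The sites did not overlap for these 3 genes. Without mouse 23 their adjusted p values were 0.000692, 0.000239 and 8.99e-06. They were 0.0381, 7.86e-07 and 5.84e-08 without mouse 36 and 0.0781, 0.0283 and 0.0187 without mouse 84. The others were Col20a1, C4b, Cp, Htra1, Sez6l and Sema5a, with log2 fold changes from -2.57 to -1.73. Of the 133 genes at least 2-fold higher in each mouse, 19 were on the epithelial, mesothelial or genital tract lists, 12 were HOX genes, 4 were smooth muscle genes and 34 were tested only through the pelvic tumors. Of the 100 genes at least 2-fold lower, none was on those lists and 20 were tested only through the adrenal tumors. Among all 17901 tested genes, 38 were tested only through the pelvic and 38 only through the adrenal tumors, and the filter itself favors their direction. The tested genes held 22 HOX genes of groups 1 to 8, 12 of groups 9 to 13 and 10 smooth muscle genes. Over all genes, the 3 pelvic levels lay above the 3 adrenal levels for 4.23% and below them for 5.16%.

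Growth programs differed in size of the site difference from mouse to mouse. The S phase list had a median difference of 0.94 log2 units in mouse 23, 0.26 in mouse 36 and 0.013 in mouse 84, and none of its 42 genes passed the adjusted test, although 19 were higher in all 3 mice. Pcna, the sliding clamp of DNA replication, was at 98.1, 104 and 99.7 CPM in the adrenal and 399, 144 and 99.9 CPM in the pelvic tumors. The G2/M genes had medians of 1.02, 0.11 and -0.021, and the MYC targets 0.79, 0.31 and -0.018. Nuclear genes of the respiratory chain had medians of 0.99, 0.21 and -0.10, whereas mitochondrially encoded genes had -0.28, -0.30 and 0.21. The cholesterol synthesis genes had medians of 0.75, 0.42 and -0.19. In each of these lists with a positive difference the pelvic tumor of mouse 23 gave the largest one. Collagens and matrix genes lay the other way in the same animal, with medians of -1.59, 0.023 and 0.087, and endothelial genes had -0.78, 0.064 and -0.067. FGF receptors and feedback targets of FGF signaling had a median log2 fold change of 0.11, with none of 20 genes past the adjusted test.

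**Figure D5:**
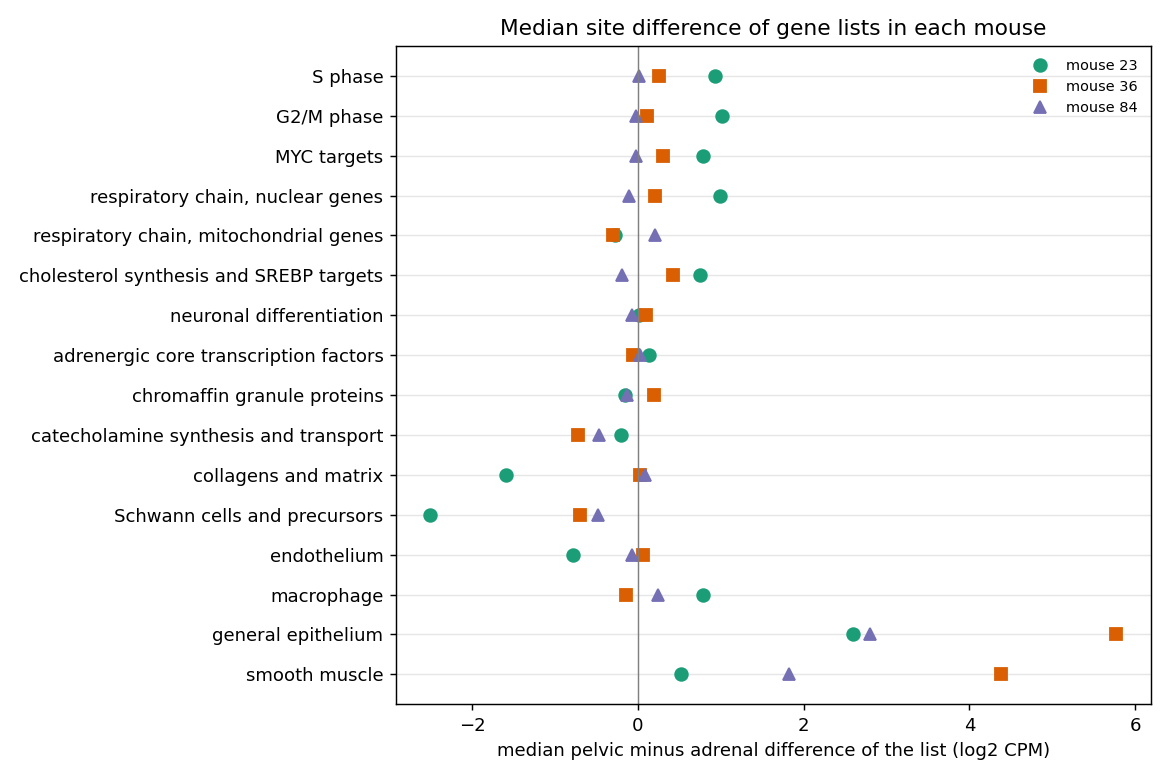
Median pelvic minus adrenal difference in log2 CPM of 16 gene lists in each mouse. The cell cycle, MYC target, nuclear respiratory chain and cholesterol lists lie between 0.75 and 1.02 in mouse 23 and between -0.19 and 0.42 in mice 36 and 84, whereas general epithelium lies above 2.5 in all 3.

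Distances between tumors showed how far site and animal each set expression. In Euclidean terms over the 2000 genes that varied most in the authors' transformed log2 table, the mean distance was 62.3 between adrenal tumors of different mice, 82.7 between pelvic tumors of different mice, 76.9 between the tumors of a mouse and 85.7 between tumors that shared neither. On average the adrenal tumors were therefore nearer to each other than to the pelvic tumors of their own mice. For the pelvic tumors the averages lay the other way, which rested on mouse 84. The tumors of a mouse were 85.6, 83.1 and 62 apart in mice 23, 36 and 84. The nearest tumor was another pelvic tumor for those of mice 23 (82.5) and 36 (73.7). For the pelvic tumor of mouse 84 it was the adrenal tumor of its own mouse. Across 17901 genes, the site differences of mice 23 and 36 correlated with a Pearson r of 0.33, those of mice 23 and 84 with 0.17 and those of mice 36 and 84 with 0.36. Genes within a tumor are not independent and these values carry no p.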

How the data were processed

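RNA of 19 mouse tumors was sequenced by the authors (stranded TruSeq libraries, paired reads), quantified with kallisto 0.44.0 (per the labels), with a combined mouse GRCm38 and human reference in the study's methods, and deposited as estimated counts per gene. The authors also deposited variance-stabilized log2 values made with DESeq2 1.32.0. The kallisto settings that the study lists include no strand option. From the estimated counts of the 6 tumors (whole numbers as deposited), genes reaching 10 counts in 3 or more tumors entered edgeR 4.0.16 (quasi-likelihood F test, TMM scaling, design of mouse plus site, Benjamini-Hochberg). CPM are counts-per-million units after TMM scaling; log2 CPM used a prior count of 2. SE is the log2 fold change divided by the square root of F. The log2 values served for distances. Tumors of a number come from the same animal, and their deviations from the site means correlated at 0.27, 0.22 and 0.342 in mice 23, 36 and 84, so mouse was a block. No pair of libraries agreed within sampling noise (chi-square per gene 42.8 or more). With 3 mice per site, p-values and SE come from a model that estimates the spread of a gene with help from all genes. They are not the spread among these animals. For Cyp11b2 the site differences were 0, -7.11 and -7.96 log2 units in mice 23, 36 and 84, with an SE of 0.54.

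Members, the 51 gene lists and the tests were chosen with earlier results of these data known. Named genes were all genes past adjusted p 0.05, the 10 largest mean rises and falls among genes at least 2-fold changed in each mouse with a mean log2 CPM above 3, per list the members with the smallest p, the largest change (mean log2 CPM above 0) and the highest level, and genes that define the model or tumor (among them Fgfr1, Mycn and Th). Some genes the rule names are not reported here. Further list members (among them most HOX, catecholamine and adrenal cortex genes, Tbx20 and Tac1) were named after their values were seen. Positions and exon overlaps come from GENCODE vM21 (GRCm38), in which all 225 names looked up matched once. The code was tested on simulated data. Alternatives used limma 3.58.1 and DESeq2 1.42.0 in R 4.3.3.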

Additional observations from a re-analysis of the deposited data

How the results depend on the processing

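Limits: the comparison rests on 3 animals, and the number of genes past adjusted p 0.05 was the value that moved most with the analysis. It was 15 as reported, 0 with no replicate block, 0 with the spread estimated together with the other 5 tumors and no replicate block, 3 with upper-quartile factors, 4 for genes with at least 10 counts in all 6 tumors, 6 with limma voom and the replicate block, 7 with limma voom and mouse as a random effect, 8 with limma on the deposited values and the block, 144 with no filter beyond any count, 233 with DESeq2 and no block and 301 with DESeq2 and the block. It was 15 with RLE size factors and 11 with the filter of the study. Leaving out 1 mouse gave 90 to 340. At an unadjusted p under 0.05, edgeR gave 948 genes with no replicate block and 754 with the spread of the other 5 tumors. With DESeq2 and the block, Cyp11b2 (adjusted p = 0.165), Sprr2a3 (0.0934) and Gsdmc2 (0.0631) did not pass. The cause of these shifts was not tested, except that a lower or higher count minimum changes which genes are tested.

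The 233 genes changed at least 2-fold in each mouse became 115 for genes with at least 10 counts in all 6 tumors and 463 to 796 when a mouse was left out, where fewer animals have to agree. The 1681 genes whose levels did not overlap between the sites became 4359 to 8109 when a mouse was left out. The mean correlation of site differences between mice was 0.17 to 0.36 with a mouse left out, where 1 pair of mice remains.

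Among list medians, that of HOX groups 9 to 13 was 3.47 on the deposited log2 values, 1.66 for genes with 10 counts in all 6 tumors and 4.13 to 6.49 with a mouse left out. For squamous epithelium it was 2.67 with no replicate block and also with the spread of the other 5 tumors, 2.68 with DESeq2 and no block, 1.86 with limma voom and the block, 0.945 on the log2 values, 2.58 with no filter, 0.244 for genes with 10 counts in all 6 tumors, 0.729 with the filter of the study and 0.946 to 2.6 with a mouse left out, against 1.43 as reported. For exocrine pancreas it was -0.496 with no replicate block, -0.499 with the spread of the other 5 tumors, -0.374 on the log2 values, -1.62 with no filter, 0.849 for genes with 10 counts in all 6 tumors and -1.24 to -0.124 with a mouse left out. Kidney tubule gave -0.999 for genes with 10 counts in all 6 tumors, and male accessory glands gave 3.01 with no filter. With a mouse left out, the range was -0.595 to -0.232 for HOX groups 1 to 8, 0.0166 to 0.131 for the adrenergic core factors, -0.622 to -0.314 for catecholamine genes, 0.0144 to 0.652 for neuropeptides, -0.869 to 0.102 for kidney tubule, 1.03 to 2.46 for mesothelium and -0.309 to -0.0543 for lymphatic endothelium. The other 733 list values moved by less than the spread among mice. Of 2728 values of the 185 named genes under the alternatives, 199 came past the threshold and 76 fell behind it.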

Other observations

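The 5 other FGFR1-N546K;MYCN tumors, which the labels assign to no single site, had levels both within and outside those of the 6 tumors of known site. Scaled over all 11 tumors, the 12 tested posterior HOX genes summed to 8.23 to 23.1 CPM in the adrenal and 84.8 to 133 CPM in the pelvic tumors. Ordered by this sum, the 5 other tumors were at 2.82, 6.88, 10.1, 75.4 and 115 CPM. In the same order, Slc6a2 was at 5.88, 87.6, 48.3, 12.8 and 8.3 CPM and Krt8 at 127, 0.316, 0.334, 2.15 and 1.62 CPM. The tumor with the lowest HOX sum also held 168000 CPM of liver and 52500 CPM of exocrine pancreas markers, against at most 94.2 and 27.6 CPM in the 6 tumors of known site. No group was formed from these tumors.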
